A study of Mus musculus with 8 samples.

Results

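The genes described here are the antioxidant, thioredoxin and glutathione defence genes of mouse hind limb muscle, a set of 42 genes chosen by name as superoxide dismutases, peroxidases, thioredoxin and glutaredoxin proteins, enzymes of glutathione synthesis, glutathione transferases, the transcription factor gene Nfe2l2 and the quinone reductase gene Nqo1. Each gene was taken by its symbol or an older alias, and all 42 had 1 probe set among the 21212 of the array. The RNA came from gastrocnemius and plantaris, the plantar flexors of the calf, of individually caged female C57BL/6J mice 7 weeks old. The wild type animals were assigned at random, after acclimation, either to keep walking on all limbs (weight bearing, 4 arrays) or to have the hind limbs lifted off the cage floor for 5 days (unloaded, 4 arrays), a model in which the calf muscles atrophy from disuse. Both groups were of the same strain, sex and age, and the labels name no transgene or drug for either. Whole muscle was extracted, so that for every gene below fewer cells of a type and less RNA per cell cannot be told apart.

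Muscle makes superoxide in its mitochondria and at membrane oxidases. Superoxide dismutases turn it into hydrogen peroxide, which catalase, the glutathione peroxidases and the peroxiredoxins reduce to water. The glutathione peroxidases and peroxiredoxins are recharged by thiols, either by the small protein thioredoxin and its reductase or by the tripeptide glutathione. Both lines draw their electrons from NADPH. Glutathione transferases couple glutathione to reactive lipid and xenobiotic products, and glutaredoxins remove glutathione from proteins. Many of these genes have antioxidant response elements, the sites at which NRF2, the protein of Nfe2l2, acts once its inhibitor KEAP1 releases it.

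All values are deposited log2 expression levels, and a difference of 1 is a doubling. Differences are unloaded minus weight bearing. The figure after ± is the SD over the 4 arrays of a group, square brackets hold the 95% confidence interval of the difference, and the adjusted p is that of limma with Benjamini-Hochberg adjustment over all 21212 probe sets, a gene being called under 0.05. A p given for the methods' t-test, another setting or fewer arrays is the adjusted p of that fit. The labels call the arrays biological replicates, and the tests measure the spread between these arrays. The arrays were normalized together, so a shift shared by all genes would not be seen. The median difference over all probe sets was 0.0447. Array medians lay between 6.28 and 6.33, and arrays correlated at 0.996 to 0.997 within a group and at 0.992 to 0.994 between groups. The 8 markers of skeletal muscle, the labelled tissue, ranked high among all probe sets, at a median percentile of 99.8 and a lowest of 79.8. Of markers of other cells, 8 of 10 fibroblast and 7 of 10 macrophage genes were lower in unloaded muscle. Of fibre type markers, 4 of 8 slow and 2 of 9 fast fibre genes were lower. None of the 7 adipocyte, 5 neutrophil and 6 Schwann cell markers was called by limma or by the methods' t-test, and none had an unadjusted p under 0.05.

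Of the 42 genes, 5 were higher in unloaded muscle (11.9%) and 13 were lower (31.0%), while 24 did not pass the test. Over all probe sets 12.8% were higher, 11.0% were lower and 23.8% were called in either direction. The share that rose was thus near the background and the share that fell was above it. The 42 genes were mostly bright, at a median percentile of 85.1 and a lowest of 43.5. They were not compared with probe sets of like level. The methods' t-test called 4 of the genes higher and 7 lower, against 6.57% higher, 6.48% lower and 13.0% in either direction over all probe sets. Without any overlap between the groups of arrays were 8 genes with higher and 13 with lower unloaded values, against 15.5% and 12.0% of all probe sets and 27.5% in either direction. The 5 that rose were Sod1, Gclc, Gclm, Gstt2 and Nqo1. The 13 that fell were Sod2, Sod3, Cat, Gpx8, Prdx4, Prdx6, Txn2, Glrx, Glrx5, Msra, Gsta4, Gstm7 and Gstk1. The changes were small: they ran from -0.64 to 0.37 with a median of -0.03, and no gene changed by 2-fold. The falls of Glrx, Gsta4 and Gpx8 reached 1.5-fold and no rise did. At 1.25-fold or more there were 2 rises, Sod1 and Gstt2, and 5 falls, with Glrx5 and Prdx4 joining the others. Quantile normalization of the deposited values gave 8 rises and 11 falls in place of 5 and 13. The genes were steady across arrays, with a median SD of 0.0743 in unloaded and 0.0815 in weight bearing muscle, against 0.0860 and 0.0848 over all probe sets.

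**Figure D1:**
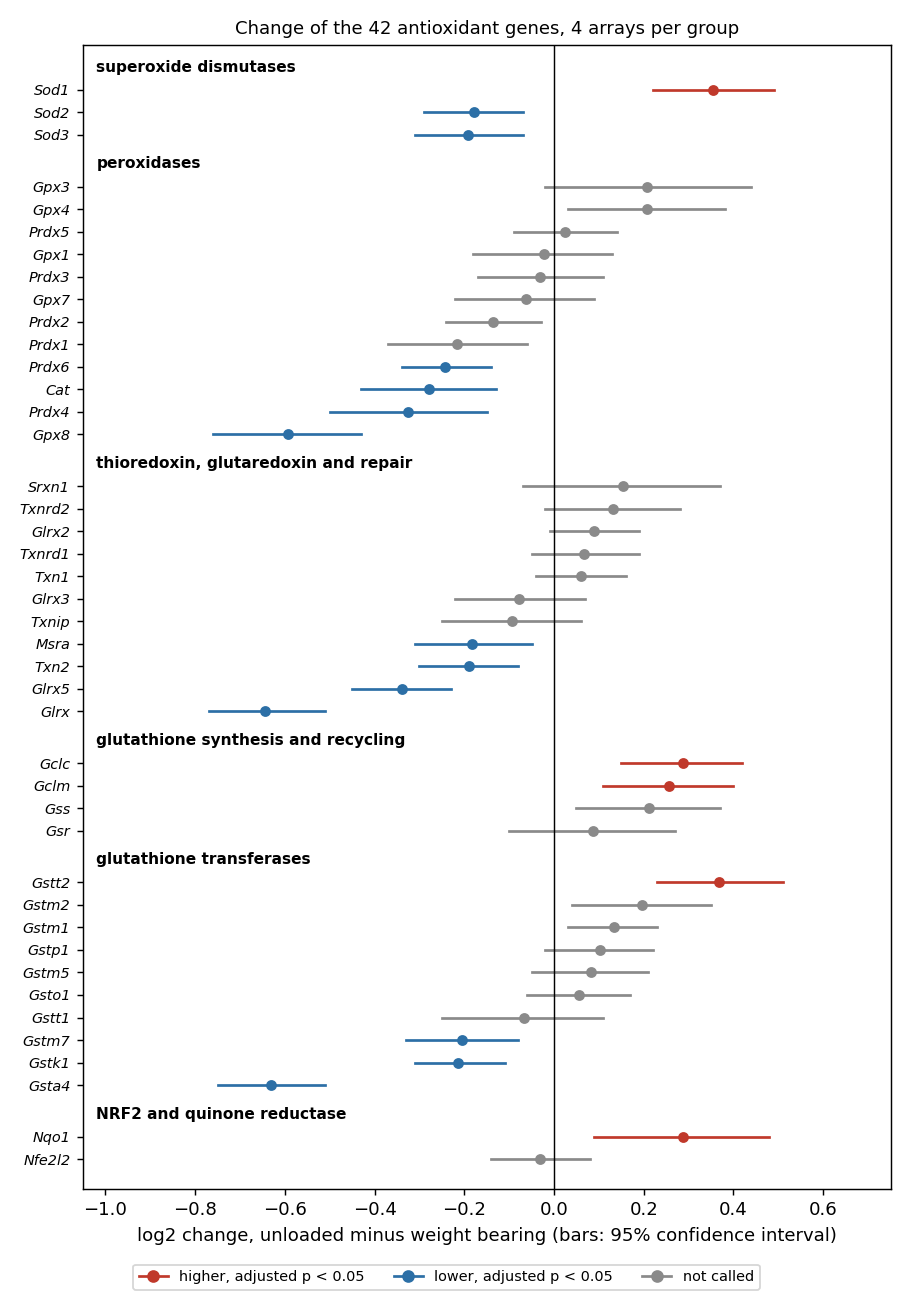
Log2 change of the 42 genes, unloaded minus weight bearing, grouped by role and ordered by size within a group, with points for the estimate and bars for the 95% confidence interval (4 arrays per group). The 5 genes called higher lie between 0.26 and 0.37, and 3 of the 13 called lower, Gpx8, Glrx and Gsta4, lie between -0.64 and -0.59, apart from the rest.

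Promoter sequence was looked at because 11 of the 42 genes are textbook targets of NRF2. RefSeq windows (GRCm38.p6), running from 250 bases before to 50 after a gene's start, were held for 35 of the 42 genes. Sod3, Prdx6, Msra, Gclc, Gsr, Gsta4 and Gstt2 had no entry. The core of the antioxidant response element was searched as TGACNNNGC on both strands, and GTAAACA, a forkhead element bound by FoxO factors, in the same way. No gene of the set held both. The antioxidant core was found in 8 of 35 genes (22.9%), and in 14.0% of all 27025 genes with a window. Among the genes called higher, 2 of 3 with a window held it, Sod1 and Gclm, with the match beginning 56 and 134 bases before the start. Of the 9 called lower with a window 1 held it, Gstm7, and of the 23 not called 5 did, namely Nfe2l2, Srxn1, Gstm5, Prdx1 and Txnrd1. The forkhead element was in 2 of 35 genes, Glrx2 and Txnip (5.71%, against 4.05% of all genes), and neither was called. The 250 bases upstream of 4 genes follow, each 5′ to 3′ on the gene's own strand: the 3 genes that rose and had an entry, and Glrx, the gene that fell the most. Capitals mark a match to the antioxidant core, which in both cases lies on the opposite strand. Sod1 is at chr16:90220512-90220761 (plus strand), Gclm at chr3:122245307-122245556 (plus strand), Nqo1 at chr8:107403206-107403455 (minus strand) and Glrx at chr13:75839635-75839884 (plus strand).
Sod1: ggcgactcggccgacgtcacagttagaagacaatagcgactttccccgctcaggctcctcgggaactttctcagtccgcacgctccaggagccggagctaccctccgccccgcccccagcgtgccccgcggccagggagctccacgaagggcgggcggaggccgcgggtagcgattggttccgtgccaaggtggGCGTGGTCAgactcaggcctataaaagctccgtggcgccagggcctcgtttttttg
Gclm: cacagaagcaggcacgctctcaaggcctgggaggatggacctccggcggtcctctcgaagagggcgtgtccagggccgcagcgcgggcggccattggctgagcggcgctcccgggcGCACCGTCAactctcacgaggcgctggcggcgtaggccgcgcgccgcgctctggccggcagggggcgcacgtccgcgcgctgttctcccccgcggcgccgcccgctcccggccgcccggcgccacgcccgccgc
Nqo1: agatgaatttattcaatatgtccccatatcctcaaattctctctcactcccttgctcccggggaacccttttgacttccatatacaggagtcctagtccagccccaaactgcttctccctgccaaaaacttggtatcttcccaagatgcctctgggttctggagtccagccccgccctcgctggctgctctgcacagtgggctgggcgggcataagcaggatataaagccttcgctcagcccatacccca
Glrx: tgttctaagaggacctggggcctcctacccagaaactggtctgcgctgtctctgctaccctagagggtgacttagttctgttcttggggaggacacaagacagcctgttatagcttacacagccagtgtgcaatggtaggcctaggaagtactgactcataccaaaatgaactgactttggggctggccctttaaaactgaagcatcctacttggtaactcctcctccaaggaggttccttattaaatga
The stretches before Nqo1 and Glrx hold neither set of letters, which says nothing of sites elsewhere in either gene. A match is a string of letters and was not shown to be bound.

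The superoxide dismutases split. Sod1, the copper-zinc enzyme of the cytosol, was the only one of the 3 to rise, and the mitochondrial and the extracellular enzyme both fell. Sod1 read 11.33, 11.42, 11.43 and 11.51 in the unloaded arrays and 11.15, 11.08, 10.94 and 11.09 in the weight bearing arrays. All unloaded arrays lay above all weight bearing ones. The mean went from 11.07 ± 0.09 to 11.42 ± 0.07, a rise of 1.28-fold (0.35 [0.22 to 0.49], adjusted p = 0.00230). It was among the 11 genes of 18 called that passed the test whichever array was left out, and its promoter is the one printed first above.

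Sod2, the manganese enzyme of the mitochondrial matrix, read 11.47, 11.30, 11.45 and 11.40 in unloaded and 11.58, 11.56, 11.60 and 11.59 in weight bearing muscle. The weight bearing arrays were tightly grouped and all lay above the unloaded ones. The fall was 1.13-fold (-0.18 [-0.29 to -0.07], adjusted p = 0.0255). It was close to the threshold, with p between 0.0525 and 0.0656 when unloaded replicate 2 or 4 or weight bearing replicate 1, 3 or 4 was left out, 0.0707 after quantile normalization and 0.0734 by the methods' t-test. Sod3 is secreted and binds the extracellular matrix. Its levels were 6.67, 6.59, 6.53 and 6.71 unloaded against 6.79, 6.89, 6.77 and 6.82 weight bearing, again without overlap. Its fall was 1.14-fold (-0.19 [-0.31 to -0.07], adjusted p = 0.0299), and p rose to between 0.0537 and 0.0784 without unloaded replicate 2 or 3 or weight bearing replicate 1, 2 or 4, and to 0.0650 by the methods' t-test. Sod3 fell beside the fibroblast markers, whose summed linear level was 7754 to 8041 in the unloaded and 12210 to 14120 in the weight bearing arrays. Col1a1, a chain of type I collagen, fell by 2.48 and Postn, periostin, fell by 2.08, while Pdgfra and Dcn, which define fibroblasts too, were not called. Their part in the fall of Sod3 was not tested.

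**Figure D2:**
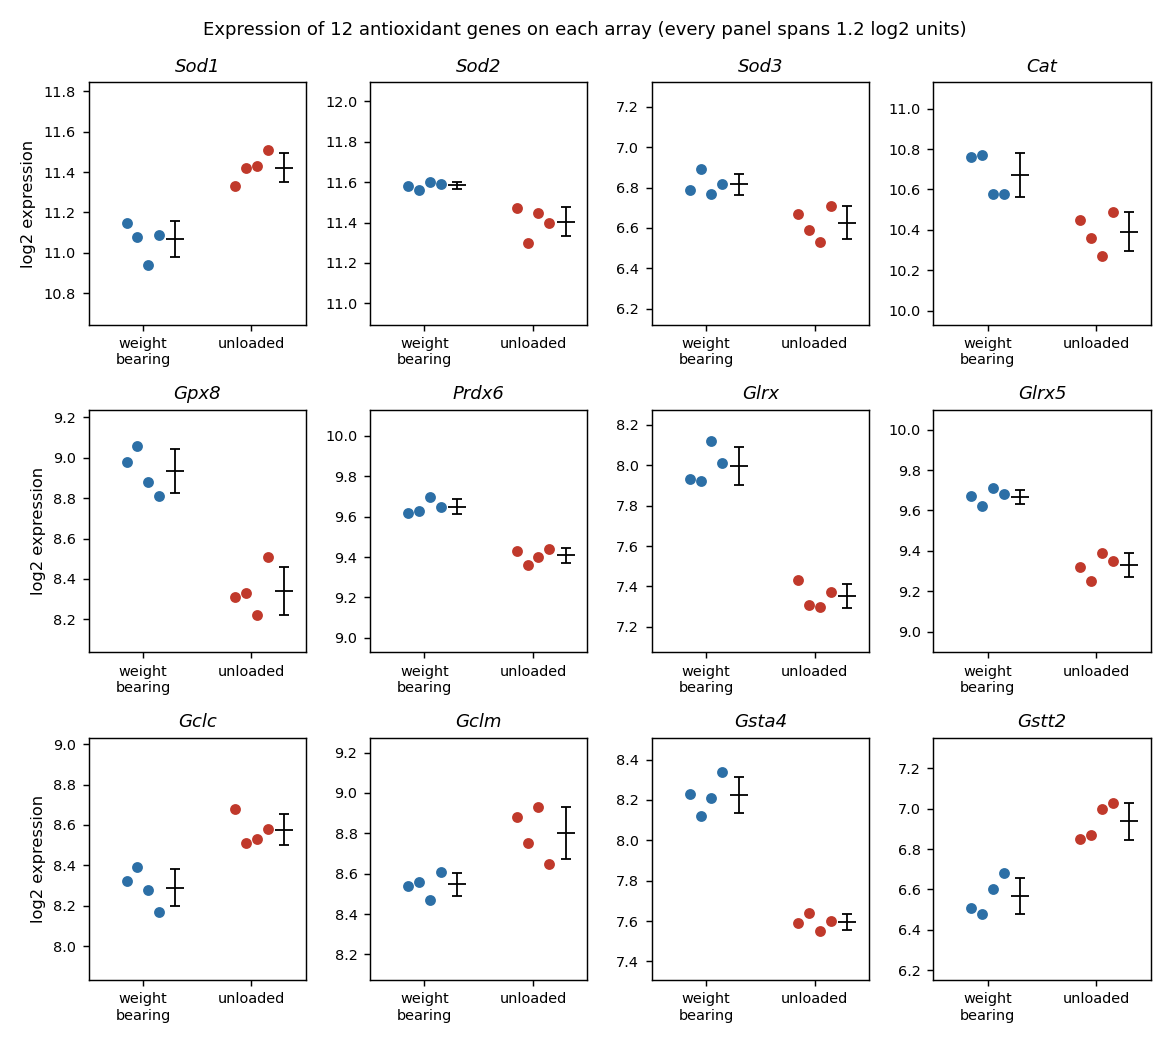
Log2 expression of 12 of the 42 genes in each of the 8 arrays, with a point for each array, a horizontal line with bars for the mean and SD of its group of 4, and the same span of the axis in each panel. In all 12 panels the unloaded points lie wholly above or wholly below the weight bearing ones, and the distance is widest for Glrx, Gsta4 and Gpx8.

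Among the 12 peroxidases 4 fell (33.3%, against 11.0% of all probe sets) and none rose (against 12.8%). Before adjustment limma gave 1 rise under 0.05, that of Gpx4, and the methods' t-test gave none. The largest fall was that of Gpx8, a glutathione peroxidase-like protein anchored in the membrane of the endoplasmic reticulum. Its levels were 8.31, 8.33, 8.22 and 8.51 in the unloaded arrays and 8.98, 9.06, 8.88 and 8.81 in the weight bearing ones, which all stood above. From 8.93 ± 0.11 the mean went to 8.34 ± 0.12, a fall of 1.51-fold (-0.59 [-0.76 to -0.43], adjusted p = 0.000431). Prdx4 is the peroxiredoxin of the same compartment, where it uses peroxide to help form disulphide bonds. It read 5.71, 5.53, 5.89 and 5.80 unloaded and 5.94, 6.09, 6.11 and 6.09 weight bearing. The groups did not overlap, although weight bearing replicate 1 lay close to the unloaded arrays, and the fall was 1.25-fold (-0.33 [-0.50 to -0.15], adjusted p = 0.0145). By the methods' t-test p was 0.0844. Gpx7, the other thiol peroxidase of that compartment, overlapped between groups (-0.06 [-0.22 to 0.09], adjusted p = 0.544). Of the 3 genes of the endoplasmic reticulum, then, 2 fell, beside the same decline of fibroblast markers, and whether fibroblasts carried that fall was not tested.

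Catalase, the haem enzyme of peroxisomes, was next in size. Cat read 10.45, 10.36, 10.27 and 10.49 in unloaded and 10.76, 10.77, 10.58 and 10.58 in weight bearing muscle. The highest unloaded array lay just under the lowest weight bearing ones. It fell 1.21-fold (-0.28 [-0.43 to -0.13], adjusted p = 0.0150, and 0.0570 by the methods' t-test). Prdx6, which uses glutathione in place of thioredoxin and also acts on phospholipids, showed one of the tightest separations of the set. Its arrays were at 9.43, 9.36, 9.40 and 9.44 unloaded and at 9.62, 9.63, 9.70 and 9.65 weight bearing. The fall was 1.18-fold (-0.24 [-0.34 to -0.14], adjusted p = 0.00384), small in size but several times the SD of 0.04 in either group.

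The remaining peroxidases did not pass the test, although some came near it. Prdx1, the abundant cytosolic peroxiredoxin, was at 10.22, 10.04, 10.08 and 9.88 unloaded and at 10.25, 10.28, 10.35 and 10.20 weight bearing. Unloaded replicate 1 alone reached into the weight bearing range, and the difference was -0.22 [-0.37 to -0.06] at adjusted p = 0.0510. Without that array p was 0.0182. Leaving out any other single array gave no call for Prdx1, with limma adjusted p up to 0.115. Prdx2, the other main cytosolic form and a major protein of red cells, was at 8.66, 8.63, 8.76 and 8.74 unloaded and at 8.83, 8.85, 8.86 and 8.80 weight bearing, with no overlap (-0.14 [-0.24 to -0.03], adjusted p = 0.0627). Of 12 red blood cell markers listed, 7 had a probe set and none was called by limma or by the methods' t-test, with 1 higher at an unadjusted p under 0.05. The mitochondrial Prdx3 (-0.03 [-0.17 to 0.11], adjusted p = 0.740) and Prdx5, found in mitochondria, peroxisomes and cytosol (0.02 [-0.09 to 0.14], adjusted p = 0.761), had overlapping groups. The intervals of both exclude a change of 1.25-fold in either direction.

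The selenium-containing glutathione peroxidases were not called. Gpx4, which reduces lipid peroxides inside membranes, read 7.41, 7.60, 7.62 and 7.56 unloaded and 7.47, 7.14, 7.33 and 7.42 weight bearing. Only unloaded replicate 1 lay inside the weight bearing range (0.21 [0.03 to 0.38], adjusted p = 0.0796, and 0.0449 without that array). Leaving out any other single array gave no call for Gpx4, with limma adjusted p up to 0.173. Gpx3, the secreted plasma enzyme, read 11.29, 11.22, 11.62 and 11.16 unloaded and 11.04, 11.14, 11.29 and 10.98 weight bearing, with overlap (0.21 [-0.02 to 0.44], adjusted p = 0.165). Gpx1, the main cytosolic form, was at 9.48 ± 0.11 and 9.50 ± 0.10 (-0.02 [-0.18 to 0.13], adjusted p = 0.845). Together with the thioredoxin reductases these make 5 selenoproteins among the 42 genes. None was called by limma or by the methods' t-test, 1 was higher at an unadjusted p under 0.05, and their median change was 0.13.

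Among the 11 thioredoxin, glutaredoxin and repair genes limma called 4 lower (36.4%, against 11.0% of all probe sets). The methods' t-test called 3 lower, without Msra. None of the 11 was higher by either test or at an unadjusted p under 0.05, while limma called 12.8% of all probe sets higher. The glutaredoxins carried the largest change of the whole set. Glrx, the cytosolic glutaredoxin that strips glutathione from protein thiols, read 7.43, 7.31, 7.30 and 7.37 in the unloaded arrays. In the weight bearing arrays it read 7.93, 7.92, 8.12 and 8.01, far above every unloaded value. From 8.00 ± 0.09 to 7.35 ± 0.06 the fall was 1.56-fold (-0.64 [-0.77 to -0.51], adjusted p = 6.9e-05). Glrx5, a mitochondrial glutaredoxin needed to pass on iron-sulphur clusters, was at 9.32, 9.25, 9.39 and 9.35 unloaded and at 9.67, 9.62, 9.71 and 9.68 weight bearing. Those groups too were well apart, with a fall of 1.27-fold (-0.34 [-0.45 to -0.23], adjusted p = 0.000908). The other two glutaredoxins were not called. Glrx2, whose product also resides in mitochondria, lay slightly higher in every unloaded array (10.84 to 10.96) than in any weight bearing array (10.78 to 10.82), with a difference of 0.09 [-0.01 to 0.19] at adjusted p = 0.186. Glrx3, a cytosolic carrier of iron-sulphur clusters, differed by -0.08 [-0.22 to 0.07] at adjusted p = 0.400.

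Of the thioredoxins themselves, the mitochondrial one fell and the cytosolic one did not pass the test. Txn1, the cytosolic form, was at 12.29, 12.30, 12.33 and 12.38 unloaded and at 12.25, 12.26, 12.28 and 12.27 weight bearing. All unloaded arrays stood above, yet by so little (0.06 [-0.04 to 0.16], adjusted p = 0.336) that the test was not passed. Txn2, the mitochondrial form, read 10.36, 10.41, 10.51 and 10.42 unloaded and 10.61, 10.60, 10.69 and 10.56 weight bearing. It fell 1.14-fold without overlap (-0.19 [-0.30 to -0.08], adjusted p = 0.0233), with p between 0.0512 and 0.0570 without unloaded replicate 2 or 4 or weight bearing replicate 1 or 3. The reductases that recharge them were not called, neither Txnrd1 in the cytosol (0.07 [-0.05 to 0.19], adjusted p = 0.397) nor Txnrd2 in mitochondria (0.13 [-0.02 to 0.28], adjusted p = 0.182). Txnip, the arrestin-like protein that binds thioredoxin and curbs glucose uptake, had overlapping groups (-0.09 [-0.25 to 0.06], adjusted p = 0.357).

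Repair enzymes gave little. Msra, which reduces oxidised methionine, read 7.93, 7.89, 8.09 and 7.93 unloaded and 8.04, 8.16, 8.16 and 8.22 weight bearing. Unloaded replicate 3 lay above weight bearing replicate 1, so the groups overlapped, and the fall of 1.14-fold (-0.18 [-0.31 to -0.05]) passed the test only narrowly at adjusted p = 0.0471. It was lost at p between 0.0847 and 0.119 when unloaded replicate 1, 2 or 4 or weight bearing replicate 2, 3 or 4 was left out, at 0.0643 after quantile normalization, at 0.0508 with array weights and at 0.0870 by the methods' t-test. Srxn1, sulfiredoxin, which rescues overoxidised peroxiredoxins, varied widely in weight bearing muscle (7.26 to 7.77) and was not called (0.15 [-0.07 to 0.37], adjusted p = 0.285).

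Glutathione synthesis held 2 of the 5 rises. All 4 genes of synthesis and recycling had a positive difference, as had 13023 of all 21212 probe sets, and the median of the 4 was 0.23. Limma called 2 of the 4 higher, against 12.8% of all probe sets higher and 11.0% lower. None of the 4 was lower by limma, by the methods' t-test or at an unadjusted p under 0.05. Both called genes encode glutamate-cysteine ligase, the rate-limiting enzyme. Gclc, its catalytic subunit, read 8.68, 8.51, 8.53 and 8.58 in unloaded and 8.32, 8.39, 8.28 and 8.17 in weight bearing muscle. The groups were apart, and the rise was 1.22-fold (0.29 [0.15 to 0.42], adjusted p = 0.00776). Gclm, the modifier subunit, read 8.88, 8.75, 8.93 and 8.65 unloaded and 8.54, 8.56, 8.47 and 8.61 weight bearing. It rose 1.19-fold (0.26 [0.11 to 0.40], adjusted p = 0.0208), with only a narrow gap between unloaded replicate 4 and weight bearing replicate 4. The call was lost without unloaded replicate 3 (adjusted p = 0.0556), without weight bearing replicate 3 (adjusted p = 0.0531) and by the methods' t-test (adjusted p = 0.0927).

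Gss, glutathione synthetase, adds the last amino acid. Its arrays were at 6.61, 6.59, 6.66 and 6.72 unloaded and at 6.48, 6.46, 6.23 and 6.55 weight bearing, so that all unloaded values were higher. At 0.21 [0.05 to 0.37] it just missed the threshold (adjusted p = 0.0540). It passed in 6 of 18 alternatives, among them without weight bearing replicate 4 (adjusted p = 0.0385) and with array medians set to 0 (adjusted p = 0.0435). Leaving out any other single array gave no call, with limma adjusted p up to 0.128. Gsr, the reductase that regenerates glutathione with NADPH, had overlapping groups (0.09 [-0.10 to 0.27], adjusted p = 0.463).

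**Figure D3:**
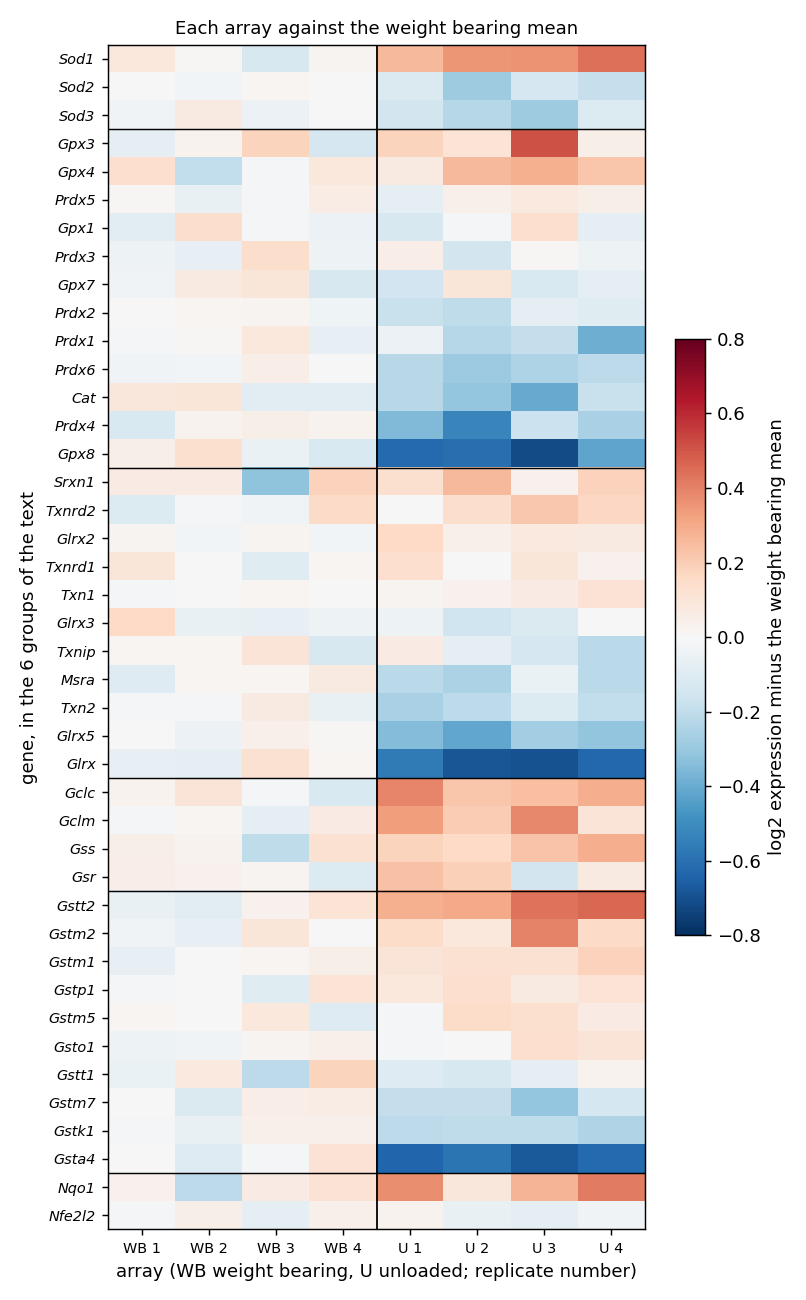
Each of the 42 genes in each of the 8 arrays, as the log2 difference from the gene's mean over the 4 weight bearing arrays (red above, blue below), with genes grouped by role and lines between the groups. The rows of Gpx8, Glrx and Gsta4 are the deepest blue in the 4 unloaded arrays, and those of Sod1, Gclc, Gclm and Gstt2 are red there.

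Of the 10 glutathione transferases 1 rose, 3 fell and 6 did not pass the test. Gsta4, an alpha class enzyme known for conjugating 4-hydroxynonenal, a product of lipid peroxidation, had the lowest p of the set. It read 7.59, 7.64, 7.55 and 7.60 unloaded and 8.23, 8.12, 8.21 and 8.34 weight bearing. The unloaded arrays barely varied and lay far below the others. From 8.22 ± 0.09 to 7.59 ± 0.04 it fell 1.55-fold (-0.63 [-0.75 to -0.51], adjusted p = 5.44e-05). Gstt2, a theta class enzyme, went the other way, from 6.51, 6.48, 6.60 and 6.68 in weight bearing to 6.85, 6.87, 7.00 and 7.03 in unloaded muscle. That was the largest rise of the 42 genes, at 1.29-fold and again without overlap (0.37 [0.23 to 0.51], adjusted p = 0.00261). Its relative Gstt1 overlapped (-0.07 [-0.25 to 0.11], adjusted p = 0.578).

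Gstk1, the kappa class transferase of mitochondria and peroxisomes, was at 11.03, 11.04, 11.04 and 11.00 unloaded and at 11.23, 11.18, 11.28 and 11.28 weight bearing. It fell 1.16-fold (-0.21 [-0.31 to -0.11], adjusted p = 0.00771), a small change in size but many times the SD of 0.02 in the unloaded arrays. Within the mu class Gstm7 fell and the others did not pass the test. Gstm7 read 7.13, 7.13, 7.01 and 7.18 unloaded and 7.32, 7.20, 7.37 and 7.38 weight bearing. The gap between the groups was thin, and the fall was 1.15-fold (-0.21 [-0.33 to -0.08], adjusted p = 0.0276). Without unloaded replicate 2 or 3 or weight bearing replicate 1, 3 or 4 its p was 0.0539 to 0.0732, and by the methods' t-test 0.0599.

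Gstm1 was at 10.96, 10.98, 10.98 and 11.04 unloaded and at 10.79, 10.86, 10.87 and 10.90 weight bearing. No array overlapped, and the difference of 0.13 [0.03 to 0.23] had adjusted p = 0.0569 by limma and 0.0350 by the methods' t-test. Limma did not call Gstm1 whichever array was left out, with adjusted p up to 0.145. Gstm2 overlapped by 1 array (0.20 [0.04 to 0.35], adjusted p = 0.0690), and Gstm5 overlapped more widely (0.08 [-0.05 to 0.21], adjusted p = 0.322). The mu class genes are alike in sequence, and whether probes crossed between them was not tested. Gstp1, the pi class enzyme (0.10 [-0.02 to 0.22], adjusted p = 0.192), and Gsto1 of the omega class (0.05 [-0.06 to 0.17], adjusted p = 0.459) were not called.

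Nfe2l2 itself was at 9.82, 9.73, 9.72 and 9.76 unloaded and at 9.78, 9.84, 9.72 and 9.83 weight bearing. The arrays were mixed, and the interval of the difference (-0.03 [-0.14 to 0.08], adjusted p = 0.655) excludes a change of 1.25-fold in its mRNA, which does not measure NRF2 protein. Nqo1, a quinone reductase widely used as a readout of NRF2, read 8.15, 7.87, 8.05 and 8.19 unloaded and 7.81, 7.57, 7.84 and 7.89 weight bearing. Only unloaded replicate 2 fell within the weight bearing range. The rise was 1.22-fold (0.29 [0.09 to 0.48], adjusted p = 0.0371), with p between 0.0528 and 0.0950 without unloaded replicate 1, 3 or 4 or weight bearing replicate 1, 2 or 3, and 0.113 by the methods' t-test. Counting the 11 textbook NRF2 targets among the 42 genes, 3 rose (Gclc, Gclm and Nqo1), 1 fell (Gsta4) and 7 were not called, with a median of 0.10. These shares were 27.3% higher and 9.09% lower, against 12.8% and 11.0% of all probe sets. Sod1, Gstt2, Prdx5 and Txnip also appear on the study's promoter list for Bcl-3, an NF-kB coactivator. That list holds genes whose promoter binding increased in unloaded over weight bearing muscle. Only names were compared, and the overlap was not tested.

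By place in the cell, the 8 mitochondrial proteins (Sod2, Prdx3, Prdx5, Txn2, Txnrd2, Glrx2, Glrx5 and Gstk1) gave 4 falls and no rise, with a median of -0.11. No rise was found by the methods' t-test or at an unadjusted p under 0.05 either. The 4 falls stood beside those of the respiratory chain and the TCA cycle, for which 12 of 20 listed genes were lower and none higher by limma, with a median of -0.21. Ndufs1 of complex I, Cyc1 of complex III and Cox7a1 of complex IV were the 3 largest falls there. The slow fibre markers, rich in oxidative muscle, had linear sums of 8541 to 11760 in unloaded and 12210 to 13070 in weight bearing arrays. Myl2 was down by 1.02 and Myl3 by 0.94, while limma did not call 4 of the 8. By the methods' t-test none of the 8 slow fibre markers was called. The 9 fast fibre markers summed to 60440 to 62340 in unloaded and 63400 to 65400 in weight bearing arrays. Limma called 2 of the 9 lower and none higher, with Mylpf (-0.33) the largest fall. The methods' t-test called 3 of the 9 lower and 1 higher. Whether mitochondrial content or fibre type carried the 4 falls was not tested. The macrophage markers summed to 1831 to 2331 unloaded and 2465 to 2946 weight bearing, and their part in any fall of the set was not tested either.

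**Figure D4:**
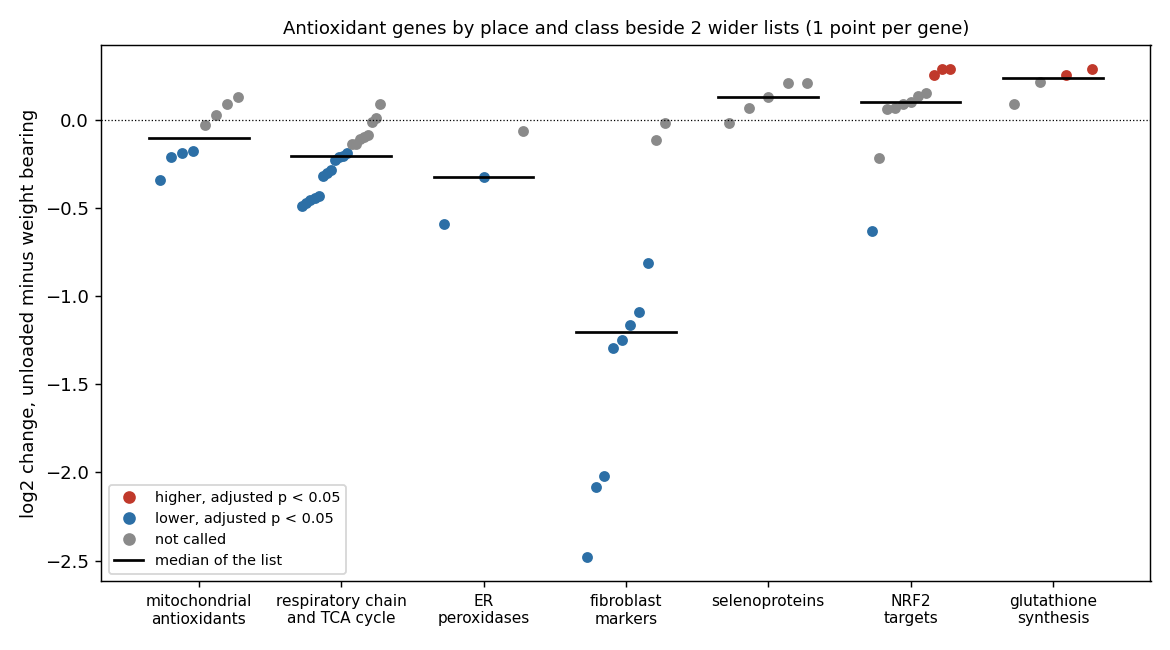
Log2 change, unloaded minus weight bearing, of genes of the set by place or class, beside the respiratory chain and TCA cycle genes and the fibroblast markers, with 1 point per gene, coloured by its call, and a line at the median of each list. The mitochondrial genes and the peroxidases of the endoplasmic reticulum (ER) have medians of -0.11 and -0.33, the NRF2 targets 0.10 and the fibroblast markers -1.21.

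Genes around the set were counted in the same fit, in which 12.8% of all probe sets were higher and 11.0% lower. For NADPH supply, 1 of 13 genes rose (7.69%) and 2 fell (15.4%). H6pd, which makes NADPH inside the endoplasmic reticulum, differed by 0.52, while Idh2, which makes it in mitochondria, and Nnt, the transhydrogenase of the inner membrane, both differed by -0.38. Nnt carries a deletion in the C57BL/6J strain, and both groups share it. Of 10 regulators and partners of NRF2, limma called 4 higher (40.0%) and the methods' t-test 2. An unadjusted p under 0.05 gave 6, and none was lower by any of these. The 4 called by limma were the repressors Bach2 (0.42) and Bach1 (0.26), the autophagy receptor Sqstm1 (0.34), which binds KEAP1, and Keap1 itself (0.19, adjusted p = 0.0355), the last named after its value was seen. The methods' t-test did not call Bach1 (adjusted p = 0.0810) or Keap1 (adjusted p = 0.0644). The call of Keap1 was also lost at p between 0.0549 and 0.0933 without unloaded replicate 1, 2 or 4 or weight bearing replicate 1, 2 or 3. Of 10 further NRF2 targets, 1 rose and 2 fell: the exporter Abcc1 differed by 0.52, the cystine carrier Slc7a11 by -0.54 and Ugdh, of glucuronic acid synthesis, by -0.34. Slc7a11 was dim, at 4.26 ± 0.05 unloaded and 4.80 ± 0.14 weight bearing and at percentile 21.5 of all probe sets, and Ugdh was not called by the methods' t-test (adjusted p = 0.0670).

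The other glutathione transferases added 3 rises (23.1%, against 12.8% of all probe sets) and no fall among 13 measured. None was lower by the methods' t-test or at an unadjusted p under 0.05. Gsta3 rose 1.79-fold, in contrast to Gsta4 of the same class. Gsta3 was dim, however, at 5.69 unloaded and 4.85 weight bearing (percentile 33.0, against 74.8 for Gsta4). Mgst3, a microsomal enzyme, differed by 0.38. Gsto2, also dim at percentile 25.9, differed by 0.17 only. Its call was lost by the methods' t-test (adjusted p = 0.0704). It was also lost at adjusted p between 0.0539 and 0.109 without unloaded or weight bearing replicate 2, 3 or 4. Breakdown of glutathione held the largest rise of all the lists around the set. Chac1, which cleaves glutathione in the cytosol and is a target of ATF4, read 10.38, 10.46, 10.36 and 10.35 unloaded and 9.44, 9.30, 9.03 and 9.22 weight bearing. It rose 2.20-fold with wide separation (1.14, adjusted p = 1.65e-05). Its homologue Chac2 differed by -0.61 (0.0809 by the methods' t-test) and Glo1, a glyoxalase named after its value was seen, by -0.33, while the membrane dipeptidase Dpep1 differed by 0.48.

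Of 14 other thioredoxin-like and methionine sulfoxide reductase genes, 2 rose (14.3%) and 5 fell (35.7%), against 12.8% and 11.0% of all probe sets. Tmx2 and Txndc5, both of the endoplasmic reticulum, differed by -0.88 and -0.49, and the mitochondrial Msrb2 by -0.36. Of 18 further selenoproteins and selenium insertion genes, 1 rose (5.56%) and 6 fell (33.3%), with a median of -0.12. Selenon, whose loss causes a myopathy, differed by -0.33, Selenot by -0.32 and Selenom by -0.28 (0.0906 by the methods' t-test), all residents of the endoplasmic reticulum.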

How the data were processed

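RNA of 8 muscle samples, each hybridised to an Affymetrix Mouse Gene 1.0 ST array, was measured, 4 arrays per group as the labels assign them. The authors deposited log2 expression values per probe set, made by robust multi-array analysis (RMA) with a Brainarray custom probe set definition, while the sources used here give neither its release nor its genome build. RMA removes background, brings all arrays to 1 distribution and condenses probes into a probe set, so that a change common to all genes is removed. All 8 columns entered as deposited, without a filter, and no pair of arrays was identical. The number of arrays limits the precision.

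Of 21212 probe sets, 18786 had 1 symbol in the platform annotation, 6 had several and 503 had none, and 1917 were named through the Entrez ID in the row name, which is the annotated gene for 99.8% of annotated rows. Prdx5 and Prdx6 were named in that way. Groups were compared with limma 3.58.1 under R 4.3.3 (a two-sided test by lmFit and eBayes), and p-values were adjusted over all probe sets by Benjamini-Hochberg, with a threshold of 0.05. The methods name a t-test, which was run with unequal variances as an alternative. Python 3.11.15, pandas 2.3.3, numpy 2.4.6 and scipy 1.17.1 were used for the remaining steps, and figures were drawn with matplotlib 3.10.9. Promoter windows came from RefSeq (GRCm38.p6). Summed marker levels are sums of 2 to the power of each value.

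The genes of the set, the surrounding gene lists, the markers and the tests were chosen with earlier results of these data known. All 42 genes are named. Of each surrounding list up to 3 called genes with the largest change are named, and of each marker list up to 2. Keap1, Glo1, Pdgfra and Dcn fall outside this rule. Alternatives were the methods' t-test (also with Storey's q-value and on the linear scale), an intensity trend with robust variance, array weights, quantile normalization, centring of each array on its median, removal of the 25% or 50% of probe sets with the lowest means, a replicate block and leaving out single arrays. In simulated arrays of 21212 probe sets, limma recovered 30.4% of 79 genes changed by 0.25, 90.9% of 66 changed by 0.5 and 98.2% of 55 changed by 1 on the log2 scale, and called 5 unchanged probe sets. The methods' t-test recovered 2.53%, 24.2% and 69.1%.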

Additional observations from a re-analysis of the deposited data

Results flagged for a closer look

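Within the groups of 4 arrays, 3 of 84 groups examined (42 genes in both groups) had 1 array far from the other 3 by Dixon's criterion, which chance alone meets in about 5% of groups. Prdx3 read 11.13 in weight bearing replicate 3 and 10.92 to 10.95 in the other weight bearing arrays. Prdx4 read 5.94 in weight bearing replicate 1 and 6.09 to 6.11 in the others. Glrx3 read 8.18 in weight bearing replicate 1 and 7.95 to 7.98 in the others.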

How the results depend on the processing

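Of the 18 genes called, 9 kept their call in all 18 alternatives (Sod1, Gpx8, Prdx6, Glrx, Glrx5, Gclc, Gsta4, Gstt2 and Gstk1), 11 kept it whichever array was left out, and none reversed in any alternative that was run. Prdx4 and Gpx7 were not tested without the dimmest 50% of probe sets. The 5 genes called higher became 9 without the dimmest 50%, 8 after quantile normalization, and 3 to 6 when 1 array was left out, with 3 both without unloaded replicate 3 and without weight bearing replicate 3. The 13 called lower became 7 by the methods' t-test, 7 by that test on the linear scale, and 8 to 13 when 1 array was left out, with 8 without unloaded replicate 2. The cause was not tested. The t-test did not call Sod2, Sod3, Cat, Prdx4, Msra, Gclm, Gstm7 and Nqo1 and called Gstm1. Only 2 genes changed sign, and neither was called: Gpx1 was -0.07 to 0.027 over the fits without 1 array, at 0.012 without unloaded replicate 1 and 0.027 without weight bearing replicate 2, and Prdx3 was 0.001 after quantile normalization and -0.06 to 0.017 without 1 array, at 0.006 without unloaded replicate 2 and 0.017 without weight bearing replicate 3. No gene of the set had several probe sets, so averaging them was not run. In the simulation far fewer genes were changed than the 23.8% of probe sets called here, so the adjusted test was stricter there. Its recovery at 0.25 therefore does not measure how often changes of that size were missed in these data.

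The labels do not say that a replicate number marks a shared batch. Deviations of arrays with the same number correlated at 0.0242 to 0.120, not over 0.1 in every pair, so the number was not taken as a pairing. As a hint from the data, 6 of 8 arrays (all but those of replicate 1) correlated best with their own number. With the replicate block 7 genes were higher and 13 lower, with Gpx3, Prdx1 and Gstm2 gained and Msra lost.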

Other observations

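Metallothioneins, small cysteine-rich proteins that bind zinc and scavenge radicals, gave 2 rises and no fall among 4 measured. Over all probe sets limma called 12.8% higher and 11.0% lower. Mt1 read 10.55, 10.57, 10.03 and 10.21 in the unloaded arrays and 9.80, 9.92, 9.54 and 9.65 in the weight bearing arrays, without overlap, a difference of 0.61 (limma adjusted p = 0.0067). Mt2 differed by 0.54 (adjusted p = 0.0294) with overlapping groups, and its p was 0.0598 to 0.0813 without unloaded replicate 1 or 2 or weight bearing replicate 1 or 3. By the methods' t-test none of the 4 was called, and none was lower at an unadjusted p under 0.05.

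Among 14 other antioxidant genes 1 rose (7.14%, against 12.8% of all probe sets) and 2 fell (14.3%, against 11.0%). Ucp3, a muscle uncoupling protein of the mitochondrial inner membrane, differed by -1.35, more than any gene of the 42, and Nqo2, a quinone reductase related to Nqo1, differed by -0.72, opposite in sign to Nqo1. Sesn2, sestrin 2, differed by 0.27, and its call was lost at p between 0.0617 and 0.0942 without unloaded replicate 2, 3 or 4 or weight bearing replicate 1, 2 or 3. By the methods' t-test its adjusted p was 0.153. Of 18 genes for sources of oxidants, limma called 3 higher (16.7%, against 12.8% of all probe sets) and 4 lower (22.2%, against 11.0%), and the methods' t-test called 1 higher and none lower. Nox4, an NADPH oxidase that releases hydrogen peroxide, differed by 0.56, Nos1, the neuronal nitric oxide synthase of muscle, by 0.46, and Cyba, the p22phox subunit of NADPH oxidases, by -0.41. The methods' t-test called none of these 3, with an adjusted p of 0.101, 0.0506 and 0.0812 in that order.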
